A study of Homo sapiens with 64 samples.

Results

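The 47 genes described here encode proteins that copy DNA or carry a cell through mitosis, and they were taken by gene symbol from a list of such genes. All 47 were found on the arrays, among 18132 genes tested. They were followed in BEAS-2B cells, a human bronchial epithelial line immortalised with a viral T antigen, which were held overnight without serum before treatment. The cells received budesonide (100 nM) with formoterol (10 nM), formoterol alone, budesonide alone, or no drug, for 1, 2, 6 or 18 h. Each of the 16 combinations of treatment and time had 4 arrays, 64 in all. Budesonide is an inhaled glucocorticoid that acts through the glucocorticoid receptor, and formoterol is a long-acting beta-adrenoceptor agonist that raises cyclic AMP. The labels do not say whether the 4 arrays of a group came from separate cultures, so p-values measure the spread between these arrays, which may be technical. All groups come from this 1 transformed line, and no other cell type was analysed here.

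Within hours of treatment many mitosis genes fell. Of 12 DNA replication genes, 3 were higher with both drugs at 6 h (8.61% of all genes were called higher) and 3 with budesonide at 18 h (8.56%). None of the 12 was lower in either comparison (9.95% and 9.78% of all genes were called lower). With both drugs at 18 h 2 of the 12 were lower (10.7%), and with budesonide at 6 h 1 was (8.12%). Formoterol lowered 18 of 30 mitosis genes at 2 h (2.29% of all genes tested were called lower) and 4 at 6 h (2.06%). Budesonide lowered 2 at 2 h (2.26%) and 11 at 6 h (8.12%). With both drugs 21 were lower at 2 h (5.65%), 19 at 6 h (9.95%) and none at 18 h (10.7%), when 9 were higher than in untreated cells (10.3% of all genes were called higher). Counts at different times are no test of a difference between times, which is given at the end. CDCA8, CENPA and AURKA had the largest falls, and among replication genes CDT1 rose with budesonide and RRM2 with formoterol. By the brightest probe set of each gene, no member differed from untreated cells by 2-fold, which is 1 on the log2 scale used throughout. The other probe set of CDCA8 gave -1.07 with both drugs at 2 h.

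A dividing cell expresses these genes in waves. Licensing factors such as CDC6 and CDT1 load the MCM2 to MCM7 helicase on replication origins in G1, E2F factors drive this set, and PCNA and the nucleotide enzymes RRM2 and TYMS serve S phase. Mitotic genes follow in G2: cyclin B with CDK1 starts mitosis, the kinases AURKA, AURKB and PLK1 build and correct the spindle, and the checkpoint proteins BUB1, BUB1B, MAD2L1 and TTK hold back the anaphase promoting complex, which CDC20 activates. In G2 the promoters of many such genes are switched on by the MuvB complex with FOXM1 through a CHR element and CCAAT boxes, and cells that stop cycling repress them through the same element.

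The promoters below show these elements for the members on which the results turn. They are RefSeq sequences of GRCh38.p14, 300 bases each, from 250 bases before to 50 after the gene's start, read 5′ to 3′ on the gene's strand. Capitals mark matches, on either strand, to the letters of the CHR, which were TTTGAA. They also mark matches to the 5 letters that give the CCAAT box its name. Matches to the E2F site TTTNNCGC are marked for CDT1 and RRM2 only. CENPA also has 1 E2F match, which is left in small letters. The promoters of CDCA8, CENPA, CCNB2 and KIF20A are shown as the genes with large falls, CDC20 as the mitosis gene that turned between drugs, and CDT1 and RRM2 as the replication genes that rose.
CDCA8, chr1:37692266-37692565, plus strand: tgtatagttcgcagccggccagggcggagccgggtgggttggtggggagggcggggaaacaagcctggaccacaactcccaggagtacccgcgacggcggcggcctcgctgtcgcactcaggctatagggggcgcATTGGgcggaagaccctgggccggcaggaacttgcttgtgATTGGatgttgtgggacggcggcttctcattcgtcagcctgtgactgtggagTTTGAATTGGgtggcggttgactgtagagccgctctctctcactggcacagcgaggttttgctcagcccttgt
CENPA, chr2:26785806-26786105, plus strand: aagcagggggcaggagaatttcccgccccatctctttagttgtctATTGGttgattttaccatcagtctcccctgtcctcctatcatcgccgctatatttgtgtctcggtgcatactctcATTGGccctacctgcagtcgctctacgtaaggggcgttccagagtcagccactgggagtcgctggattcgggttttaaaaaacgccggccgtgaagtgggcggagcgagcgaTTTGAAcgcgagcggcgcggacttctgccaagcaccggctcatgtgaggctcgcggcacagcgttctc
CCNB2, chr15:59104896-59105195, plus strand: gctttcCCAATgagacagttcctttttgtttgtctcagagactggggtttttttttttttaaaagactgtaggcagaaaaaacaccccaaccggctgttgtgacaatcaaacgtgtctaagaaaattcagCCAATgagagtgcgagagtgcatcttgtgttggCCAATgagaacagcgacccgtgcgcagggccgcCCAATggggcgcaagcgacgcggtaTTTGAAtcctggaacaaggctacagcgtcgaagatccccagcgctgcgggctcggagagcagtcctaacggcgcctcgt
KIF20A, chr5:138178862-138179161, plus strand: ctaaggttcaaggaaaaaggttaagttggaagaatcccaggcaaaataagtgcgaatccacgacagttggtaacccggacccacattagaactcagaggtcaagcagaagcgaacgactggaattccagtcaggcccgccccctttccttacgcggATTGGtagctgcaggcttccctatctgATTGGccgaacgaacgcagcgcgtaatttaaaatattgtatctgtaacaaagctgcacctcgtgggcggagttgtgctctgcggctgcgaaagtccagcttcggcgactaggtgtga
CDC20, chr1:43358731-43359030, plus strand: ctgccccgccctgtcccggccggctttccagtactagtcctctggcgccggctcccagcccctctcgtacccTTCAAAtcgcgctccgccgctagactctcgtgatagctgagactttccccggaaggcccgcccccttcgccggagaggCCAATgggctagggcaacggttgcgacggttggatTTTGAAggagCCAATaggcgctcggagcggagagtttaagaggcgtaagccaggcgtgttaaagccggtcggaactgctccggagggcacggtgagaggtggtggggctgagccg
CDT1, chr16:88803539-88803838, plus strand: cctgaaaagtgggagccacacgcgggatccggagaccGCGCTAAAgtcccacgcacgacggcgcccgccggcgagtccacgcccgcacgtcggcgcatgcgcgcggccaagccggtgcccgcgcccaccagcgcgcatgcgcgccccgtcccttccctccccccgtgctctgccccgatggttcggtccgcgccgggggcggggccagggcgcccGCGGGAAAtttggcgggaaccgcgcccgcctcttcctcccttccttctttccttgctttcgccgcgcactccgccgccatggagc
RRM2, chr2:10122489-10122788, plus strand: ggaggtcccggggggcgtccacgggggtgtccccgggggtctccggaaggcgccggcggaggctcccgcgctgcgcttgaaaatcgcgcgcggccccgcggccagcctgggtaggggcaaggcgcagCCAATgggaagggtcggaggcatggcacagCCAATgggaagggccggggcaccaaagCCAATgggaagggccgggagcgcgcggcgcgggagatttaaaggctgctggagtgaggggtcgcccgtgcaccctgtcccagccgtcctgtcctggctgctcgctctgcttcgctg

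The CDCA8 promoter holds a CHR 23 bases before the start, and its last letter is also the first of a CCAAT box on the other strand. CENPA has a CHR 18 bases and CCNB2 a CHR 29 bases before the start, with CCAAT boxes upstream of both. The KIF20A window has 2 CCAAT boxes and no match to the CHR letters. The CDT1 window has 2 E2F matches and no CHR, and that of RRM2 has 3 CCAAT boxes, with no E2F match to these letters. The table of promoters held 39 of the 47 members. Where it listed several starts for a gene, the first was used. A CHR stood in 17 of 25 mitosis promoters, in 0 of 10 replication promoters and in 0 of 4 promoters of regulators (E2F1 and the CDC25 phosphatases), against 15.4% of 27305 promoters. An E2F site stood in 9 of 10 replication promoters and 3 of 25 mitosis promoters, against 6.9% of all. CCAAT boxes stood in 21 of 25 mitosis and 7 of 10 replication promoters, against 35.7% of all. The cyclic AMP response element TGACGTCA was found in 3 of 39 members and 2.0% of all promoters. Its 5-base part TGACG, which every full element also contains, was found in 17 of 39 members and 25.0% of all. The glucocorticoid response element core ACANNNTGT was found in 0 of 39 members and 5.4% of all. Among the 16 matched genes that both drugs lowered at 2 h, 9 had a CHR. All 16 were mitosis genes, so the share to compare is the 17 of 25 mitosis promoters, which is no lower. These matches are letters in a window and were not tested for binding.

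Values are the authors' RMA log2 expression, and a gene is represented by its brightest probe set. All 47 members averaged above the median of all array values (4.90). RNA quality was measured as the difference between 3′ and 5′ ACTB probe sets, which is larger in degraded RNA. At 2 h it averaged 1.27 with both drugs, 1.09 with formoterol, 1.02 with budesonide and 1.07 without drug. It was above the untreated array of the same number in 4 of 4 pairs with both drugs at 2 h and with formoterol at 1 h. Array 1 of the groups at 1, 6 and 18 h had 1.52 to 2.21, against 0.57 to 1.70 in arrays 2 to 4. At 2 h arrays 1 and 3 had 1.30 to 1.61, against 0.50 to 1.11 in arrays 2 and 4. Without replicate 1 of every group, 17 members were called for the combination at 2 h and 17 at 6 h, and 15 for formoterol at 2 h, against 23, 23 and 19 with it. Array 3 at 2 h stayed in that fit, and a fit without it is given in the closing sections. The part of RNA quality in the results was not tested beyond these fits.

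Of 6 epithelial markers, KRT7, KRT8 and KRT18 averaged above the median of all values, while KRT19 (3.66), EPCAM (2.50) and CDH1 (4.25) did not. Of 7 fibroblast and smooth muscle markers, COL1A1 (8.35), PDGFRB (8.68) and COL3A1 (5.23) were above it and COL1A2, DCN, ACTA2 and MYH11 were not. Of 5 leukocyte markers only CD68 (5.75) was above it, with PTPRC at 1.97, and none of 4 endothelial markers was. In these bulk cultures fewer cells in G2 or mitosis and less RNA per cell cannot be told apart.

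Each gene was tested against untreated cells of the same time with limma across all 18132 genes, and was called when its Benjamini-Hochberg adjusted p was under 0.05. Comparisons at 1 time share the 4 untreated arrays. Budesonide lowered 1 member at 1 h (0.331% of all genes were called lower), 3 at 2 h (2.26%) and 12 at 6 h (8.12%), which is 25.5% of the members. It raised none at 1 h (0.667% of all genes were called higher) or 2 h (1.69%) and 2 at 6 h (6.12%). At 18 h budesonide raised 4 members (8.56% of all genes) and lowered 1 (9.78%). Formoterol lowered 2 members at 1 h (0.32%), 18 at 2 h (2.29%), 4 at 6 h (2.06%) and none at 18 h (0.64%). It raised none at 1 h (1.02%), RRM2 alone at 2 h (2.31%) and 6 h (2.76%), and KIF20A alone at 18 h (0.469%). The combination lowered 3 members at 1 h (1.13%), 21 at 2 h (5.65%), 19 at 6 h (9.95%) and 2 at 18 h (10.7%). It raised 1 at 1 h (1.63%), 2 at 2 h (3.84%), 4 at 6 h (8.61%) and 11 at 18 h (10.3%), the last being 23.4% of the members. The share of members called lower was 38.3% for formoterol at 2 h and 44.7% for the combination at 2 h. For budesonide at 18 h, 8.51% of the members were called higher and 2.13% lower, against the 8.56% and 9.78% of all genes.

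Of the 47 members, 35 were called in at least 1 of these 12 comparisons, as were 37.8% of all genes. The 12 that were called in none were TOP2A, PLK4, MAD2L1, CDC25B, MCM3, MCM4, MCM6, MCM7, TYMS, E2F1, FOXM1 and GINS2. Of the 18 that formoterol lowered at 2 h, 14 were also lower with both drugs at 6 h, and 9 were lower with budesonide at 6 h. These comparisons use different untreated arrays. The replicate numbers paired the arrays in some comparisons, and with the replicate number as a block 6 members were called for budesonide at 2 h and 15 at 18 h. With the block set within each time, 6 were called for formoterol at 1 h and 22 for the combination at 18 h. Shares of all genes were not counted with a block, so these counts cannot be set against the shares above. Without untreated array 4 the formoterol count at 2 h was 12, and without untreated array 2, untreated array 4 or budesonide array 3 the budesonide count at 2 h was 1. Of the formoterol counts, that at 1 h was 0 without formoterol array 3 and 1 without any of untreated arrays 2, 3 and 4 or formoterol arrays 1 and 2. The combination count at 1 h was 2 without combination array 2.

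**Figure D1:**
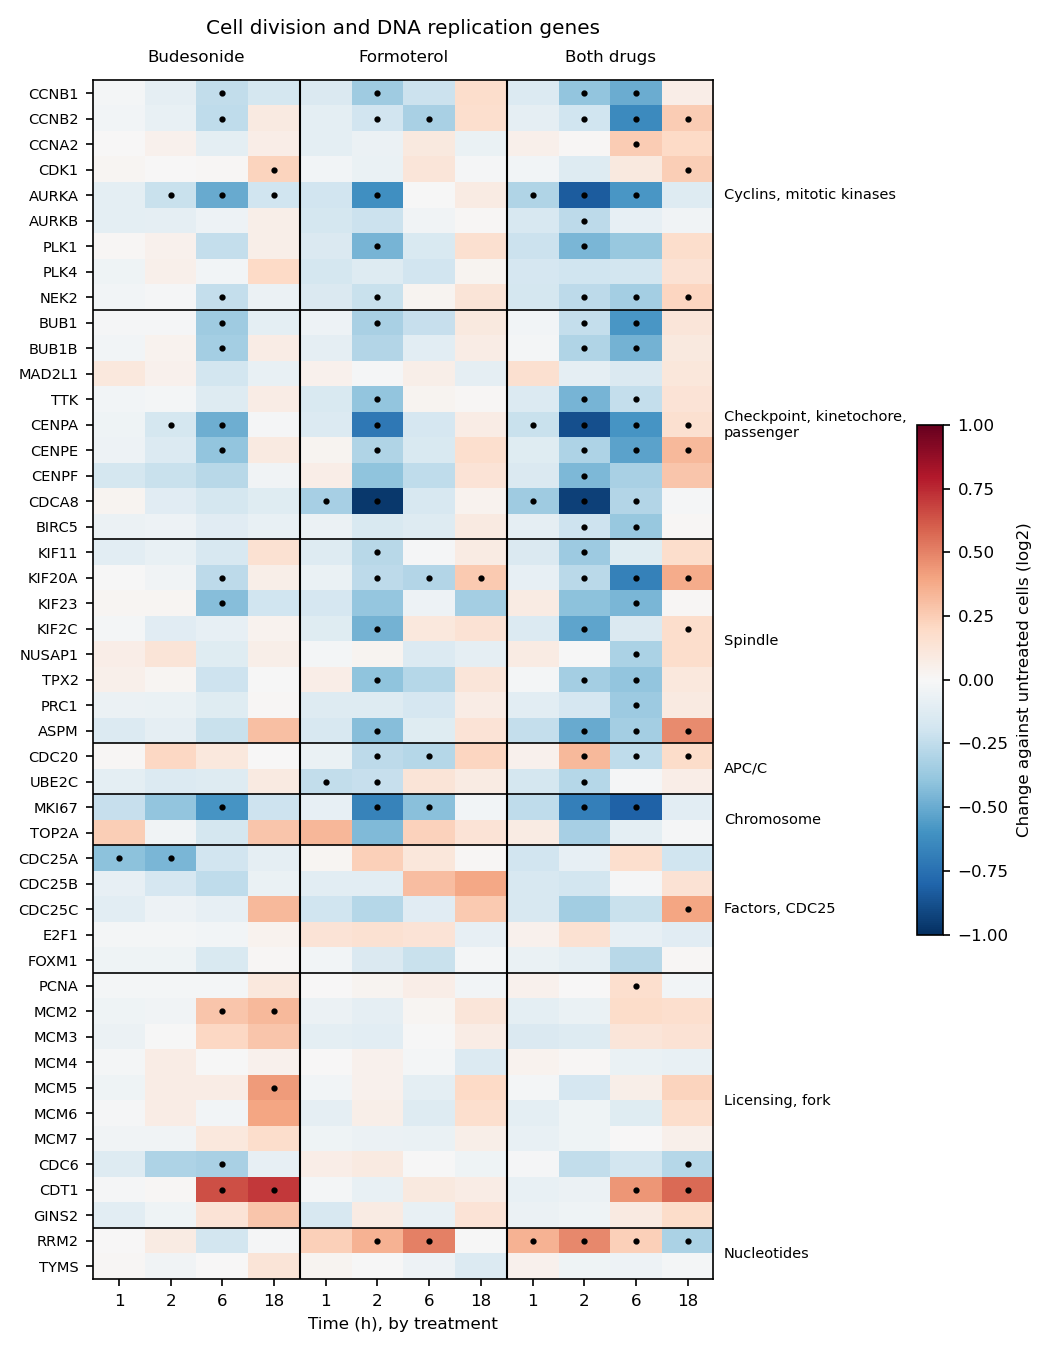
Change of each of the 47 members (rows, grouped by role) against untreated cells of the same time, by drug and time in hours (columns). Red is higher and blue lower on the log2 scale, and a dot marks an adjusted p under 0.05. Most dots in the mitosis rows are blue, in formoterol at 2 h, budesonide at 6 h and the combination at 2 and 6 h.

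**Figure D2:**
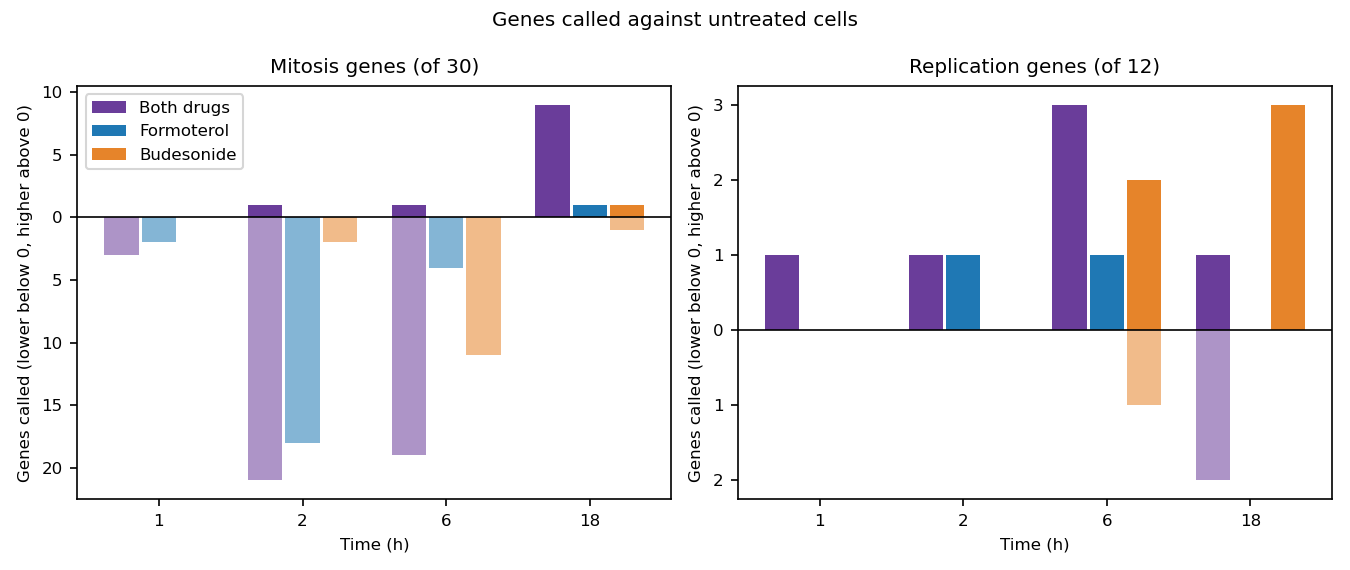
Number of genes called higher (above 0) and lower (below 0, paler) than in untreated cells, for 30 mitosis genes (left) and 12 replication genes (right), by hours of treatment and treatment (colours). Mitosis genes called lower peak at 21 with both drugs at 2 h, and replication genes called in either direction number at most 3.

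CDCA8 encodes borealin, a subunit of the chromosomal passenger complex that corrects spindle attachment. Values below are given for arrays 1 to 4 of each group in order. At 2 h it stood at 7.65, 7.72, 7.91 and 7.89 with both drugs, 7.73, 7.55, 8.04 and 7.72 with formoterol and 8.57, 8.64, 9.03 and 8.65 in untreated cells. All 4 arrays of each drug group lay below all 4 untreated arrays. The change was -0.93 ± 0.091 (SE, adjusted p = 1.29e-12) for the combination and -0.96 ± 0.091 (SE, adjusted p = 1.05e-12) for formoterol (limma). Untreated array 3, at 9.03, stood above the other 3 untreated arrays. At 1 h CDCA8 stood at 8.18, 7.997, 8.23 and 8.24 with both drugs, 8.12, 8.06, 8.25 and 8.33 with formoterol and 8.44, 8.45, 8.51 and 8.69 in untreated cells. Both drug groups lay below every untreated array. The changes there were -0.36 with both drugs and -0.33 with formoterol (adjusted p = 0.0106 and 0.0408, limma). Both 1 h calls were lost when array 1 of every group was left out (adjusted p = 0.054 and 0.267, limma). Single arrays also ended them, for the combination untreated array 4 or combination array 2, and for formoterol untreated array 2, 3 or 4 or formoterol array 1, 2 or 3. At 6 h the combination still gave -0.29 ± 0.091 (SE, adjusted p = 0.0155, limma), whereas budesonide alone did not pass the test at any time.

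CENPA, the histone variant that marks the centromere, was also lowest at 2 h. There it stood at 9.86, 9.71, 9.63 and 9.72 with both drugs, 9.93, 9.98, 9.87 and 9.81 with formoterol, 10.41, 10.51, 10.34 and 10.46 with budesonide and 10.58, 10.68, 10.46 and 10.72 in untreated cells. The combination and formoterol arrays all lay below every untreated array, and the budesonide arrays overlapped with the untreated arrays. Changes were -0.88 ± 0.054 (SE, adjusted p = 9.92e-21) for the combination, -0.71 ± 0.054 (SE, adjusted p = 2.37e-16) for formoterol and -0.18 ± 0.054 (SE, adjusted p = 0.0432) for budesonide (limma). At 6 h it fell by 0.59 with both drugs and by 0.49 with budesonide (adjusted p = 5.55e-14 and 8.28e-11, limma), and at 18 h it was +0.16 with both drugs (adjusted p = 0.0243, limma). The small budesonide change at 2 h was not called in a fit of those groups alone (adjusted p = 0.359, limma), and each of 6 single arrays left out also ended that call. These were untreated arrays 1, 2 and 4 and budesonide arrays 1, 3 and 4.

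CDCA8 and CENPA belong to a group of 9 checkpoint and kinetochore genes. With both drugs at 2 h, 8 of these 9 were lower (5.65% of all genes were), with a median change of -0.31, and at 6 h 7 were lower (9.95% of all genes), with a median of -0.38. TTK, a kinase that recruits the checkpoint, fell by 0.46 at 2 h with both drugs and by 0.40 with formoterol (adjusted p = 1.81e-08 and 2.07e-06, limma). BUB1, a checkpoint kinase, fell most at 6 h, by 0.59 with both drugs and 0.36 with budesonide (adjusted p = 2.6e-09 and 0.000193, limma). CENPE, a kinetochore motor, gave -0.54 with both drugs at 6 h and +0.32 at 18 h (adjusted p = 2.39e-07 and 0.00149, limma). MAD2L1 did not pass the test in any comparison against untreated cells.

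**Figure D3:**
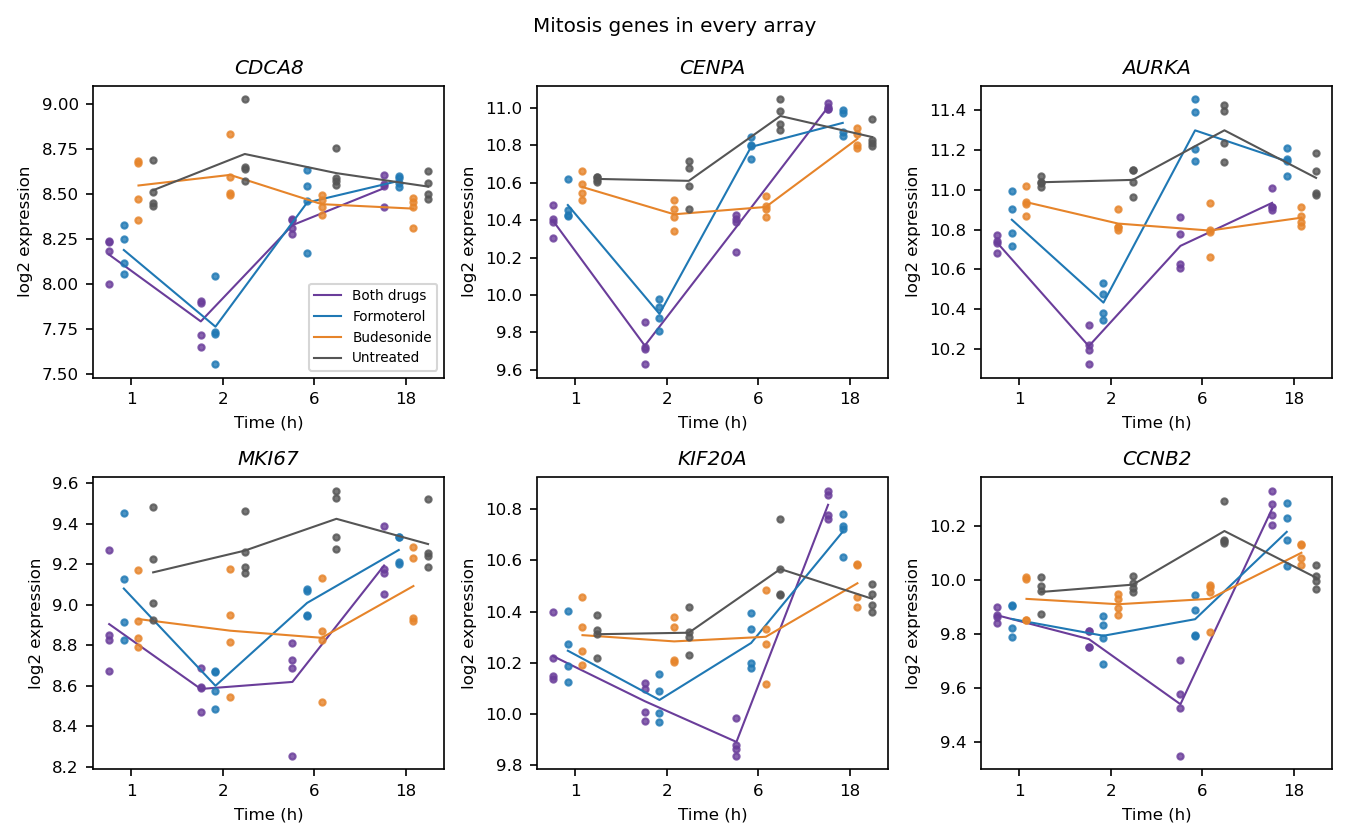
Log2 expression of 6 mitosis genes in every array (points) with group means (lines), by time of treatment in hours. CDCA8, CENPA and AURKA are lowest with both drugs or formoterol at 2 h. KIF20A and CCNB2 are lowest with both drugs at 6 h.

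Among cyclins and mitotic kinases, AURKA, which matures the centrosome and spindle, was lower with every treatment at 2 h. At 2 h it stood at 10.22, 10.12, 10.32 and 10.20 with both drugs, 10.48, 10.38, 10.53 and 10.35 with formoterol, 10.81, 10.81, 10.80 and 10.90 with budesonide and 10.96, 11.10, 11.04 and 11.10 in untreated cells. All 12 drug arrays lay below the untreated arrays. Changes were -0.83 ± 0.064 (SE, adjusted p = 1.08e-16) for the combination, -0.62 ± 0.064 (SE, adjusted p = 2.16e-11) for formoterol and -0.22 ± 0.064 (SE, adjusted p = 0.0314) for budesonide (limma). At 6 h it stood at 10.79, 10.80, 10.93 and 10.66 with budesonide and 11.43, 11.23, 11.39 and 11.14 in untreated cells, a change of -0.50 ± 0.064 (SE, adjusted p = 3.94e-09, limma). At 6 h with formoterol alone it did not pass the test (-0.0002, adjusted p = 0.999, limma). At 1 h it stood at 10.74, 10.68, 10.73 and 10.78 with both drugs and 11.01, 11.03, 11.07 and 11.04 in untreated cells, a change of -0.30 ± 0.064 (SE, adjusted p = 0.000884, limma). The 4 combination arrays were all lower than the untreated ones. Leaving out replicate 1 of every group ended the budesonide call at 2 h (adjusted p = 0.0634, limma), as did single arrays 2, 3 or 4 of untreated cells or 1, 2 or 3 of budesonide.

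CCNB1 and CCNB2, the cyclins B that activate CDK1, fell most at 6 h with both drugs. CCNB2 stood at 9.53, 9.71, 9.58 and 9.35 with both drugs, 9.79, 9.94, 9.80 and 9.89 with formoterol, 9.96, 9.97, 9.98 and 9.81 with budesonide and 10.29, 10.15, 10.14 and 10.14 in untreated cells. All drug arrays lay below the untreated arrays, of which array 1 (10.29) stood above the other 3. The changes were -0.64 ± 0.055 (SE, adjusted p = 6.61e-15) for the combination, -0.33 ± 0.055 (SE, adjusted p = 1.75e-05) for formoterol and -0.25 ± 0.055 (SE, adjusted p = 0.000446) for budesonide (limma). CCNB1 stood at 10.68, 10.77, 10.85 and 10.57 with both drugs and 11.10, 11.26, 11.33 and 11.19 in untreated cells, a change of -0.50 ± 0.068 (SE, adjusted p = 1.95e-08, limma). At 18 h CCNB2 was +0.25 and CDK1 +0.24 with both drugs (adjusted p = 0.000246 and 0.00132, limma). PLK1, a kinase needed from mitotic entry to exit, stood at 6.12, 5.98, 6.06 and 6.43 with formoterol and 6.76, 6.49, 6.26 and 6.95 in untreated cells at 2 h, groups that overlap. Its change of -0.47 ± 0.14 (SE, adjusted p = 0.0411, limma) was not called without replicate 1 of every group (adjusted p = 0.356, limma), or without untreated array 1 or 4 or formoterol array 1, 2 or 3. CCNA2, a cyclin of S phase and G2, was higher with both drugs at 6 h (+0.25, adjusted p = 0.0106, limma), the only mitosis gene called higher there.

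Among the 8 spindle genes, KIF20A, a kinesin of the central spindle, stood at 9.86, 9.84, 9.98 and 9.88 with both drugs, 10.20, 10.18, 10.40 and 10.33 with formoterol, 10.12, 10.27, 10.48 and 10.33 with budesonide and 10.47, 10.57, 10.76 and 10.47 in untreated cells at 6 h. The combination arrays all lay below every untreated array. Its change was -0.68 ± 0.069 (SE, adjusted p = 2.96e-12) for the combination (limma). At 18 h it stood at 10.87, 10.76, 10.86 and 10.78 with both drugs, 10.73, 10.61, 10.72 and 10.78 with formoterol and 10.43, 10.40, 10.51 and 10.47 in untreated cells, so that both drug groups lay above the untreated arrays. The changes at 18 h were +0.37 ± 0.069 (SE, adjusted p = 2.36e-05) with both drugs and +0.26 ± 0.069 (SE, adjusted p = 0.0375) with formoterol (limma). Its formoterol call was lost without replicate 1 of every group (adjusted p = 0.118, limma) and without untreated array 1, 2 or 4 or formoterol array 1, 3 or 4. ASPM, a spindle pole protein, stood at 10.78, 10.66, 10.96 and 10.73 with both drugs and 10.11, 10.23, 10.43 and 10.48 in untreated cells at 18 h. All combination arrays lay above the untreated arrays. Its change with both drugs was +0.47 at 18 h and -0.50 at 2 h (adjusted p = 0.00306 and 0.0032, limma). KIF2C, which depolymerises microtubules at kinetochores, fell by 0.53 with both drugs and by 0.47 with formoterol at 2 h (adjusted p = 7.06e-10 and 3.44e-08, limma). Of 8 spindle genes 5 were lower with formoterol at 2 h (2.29% of all genes), 5 with both drugs at 2 h (5.65%) and 6 with both drugs at 6 h (9.95%).

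CDC20, the activator of the anaphase promoting complex, went against the other mitosis genes with both drugs at 2 h. It stood at 10.30, 10.40, 10.45 and 10.38 with both drugs, 9.75, 9.80, 9.82 and 9.80 with formoterol, 10.21, 10.29, 10.29 and 10.26 with budesonide and 9.99, 10.05, 10.08 and 10.10 in untreated cells. Combination arrays were all above and formoterol arrays all below the untreated arrays. The change was +0.33 ± 0.065 (SE, adjusted p = 0.000129) with both drugs, -0.26 ± 0.065 (SE, adjusted p = 0.00594) with formoterol and +0.21 ± 0.065 (SE, adjusted p = 0.0527) with budesonide (limma). The combination exceeded the sum of the single drugs by +0.38 ± 0.092 (SE, adjusted p = 0.024) (limma interaction), the only interaction called among the 47 members at any time (0.358% of all genes were called higher and 0.232% lower in the interaction at 2 h). The interactions called higher and lower among all genes were 0.0772% and 0.0938% at 1 h, 0.447% and 0.276% at 6 h, and 0.154% and 0.121% at 18 h. The CDC20 interaction call was lost without untreated array 3 or 4, budesonide array 1, formoterol array 1, or combination array 2 or 3. It was also lost without replicate 1 of every group and with probe sets averaged per gene. The 3 probe sets of CDC20 ranged from +0.27 to +0.33 with both drugs at 2 h. With formoterol they disagreed in sign, from -0.26 to +0.16 at 2 h and from -0.34 to +0.17 at 6 h. The brightest gave -0.2616 and -0.2887, and the lowest, another probe set, -0.2644 and -0.3387, so the falls are not those of the brightest alone. The dimmest averaged 3.05, near the lower quartile of all array values (3.02). At 6 h CDC20 was lower with both drugs (-0.25, adjusted p = 0.00252, limma) and with formoterol (-0.29, adjusted p = 0.00179, limma) in its brightest probe set, while its probe sets ranged from -0.25 to +0.27 with both drugs. UBE2C, the ubiquitin carrier of the same complex, stood at 11.78, 11.83, 11.63 and 11.81 with formoterol and 12.07, 12.02, 11.96 and 12.02 in untreated cells at 1 h. No formoterol array reached the lowest untreated array. Its change there was -0.25 ± 0.056 (SE, adjusted p = 0.00433, limma), a call lost without replicate 1 of every group or without formoterol array 3. It fell by 0.29 with both drugs and by 0.23 with formoterol at 2 h (adjusted p = 0.000122 and 0.00491, limma).

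MKI67, the Ki-67 protein that coats mitotic chromosomes and is used to count proliferating cells, stood at 8.69, 8.25, 8.73 and 8.81 with both drugs, 9.08, 9.07, 8.94 and 8.95 with formoterol, 9.13, 8.52, 8.87 and 8.83 with budesonide and 9.53, 9.33, 9.27 and 9.56 in untreated cells at 6 h. All drug arrays lay below the untreated arrays. The changes were -0.81 ± 0.13 (SE, adjusted p = 7.82e-07) for the combination, -0.42 ± 0.13 (SE, adjusted p = 0.041) for formoterol and -0.59 ± 0.13 (SE, adjusted p = 0.000355) for budesonide (limma). The formoterol call at 6 h was lost without any 1 of 7 single arrays, all but untreated array 3. At 2 h it stood at 8.59, 8.47, 8.59 and 8.69 with both drugs, 8.67, 8.48, 8.67 and 8.57 with formoterol and 9.19, 9.26, 9.16 and 9.46 in untreated cells. Here too every drug array was below the untreated arrays. The changes were -0.68 ± 0.13 (SE, adjusted p = 4.58e-05) with both drugs and -0.67 ± 0.13 (SE, adjusted p = 0.00014) with formoterol (limma). TOP2A, which untangles DNA before division, varied widely between arrays and stood at 12.09, 11.23, 10.86 and 10.71 with formoterol and 12.35, 11.70, 11.54 and 11.08 in untreated cells at 2 h. Each formoterol array lay below the untreated array of the same number, and the groups overlapped. Its change of -0.44 did not pass (adjusted p = 0.526, limma) and passed when the block was set inside each time (adjusted p = 0.0201, limma).

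Of the 12 replication genes, the combination lowered none at 2 h (5.65% of all genes were called lower) or 6 h (9.95%). At 18 h it lowered 2, CDC6 and RRM2 (10.7%). It raised 1 at 2 h (3.84% were called higher), 3 at 6 h (8.61%) and 1 at 18 h (10.3%). Budesonide lowered CDC6 alone at 6 h (8.12%). Formoterol lowered none at any time (0.32% to 2.29% of all genes were called lower). MCM3, MCM4, MCM6 and MCM7 of the helicase passed the test in no comparison against untreated cells. CDT1, the licensing factor that loads the helicase, rose with budesonide. It stood at 9.18, 8.90, 8.48 and 9.04 with budesonide and 8.64, 8.15, 8.05 and 8.17 in untreated cells at 6 h, and at 9.27, 9.23, 8.99 and 9.34 with budesonide and 8.62, 8.58, 8.30 and 8.49 in untreated cells at 18 h. At 18 h all 4 budesonide arrays lay above the untreated arrays, and at 6 h array 3 of budesonide overlapped with them. Its change was +0.65 ± 0.13 (SE, adjusted p = 7.02e-05) at 6 h and +0.71 ± 0.13 (SE, adjusted p = 1.01e-05) at 18 h (limma). With both drugs it was +0.44 ± 0.13 (SE, adjusted p = 0.00664) at 6 h and +0.57 ± 0.13 (SE, adjusted p = 0.000334) at 18 h (limma). With formoterol alone it was +0.10 at 6 h and +0.077 at 18 h, neither passing the test (adjusted p = 0.87 and 0.876, limma).

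MCM2, a helicase subunit, stood at 10.19, 9.96, 9.87 and 10.15 with budesonide and 9.71, 9.71, 9.74 and 9.73 in untreated cells at 18 h, without overlap, a change of +0.33 ± 0.079 (SE, adjusted p = 0.00132, limma). MCM5 was +0.43 at 18 h with budesonide (adjusted p = 0.0166, limma), with 5.08, 5.31, 5.87 and 5.56 in budesonide and 4.98, 4.92, 5.09 and 5.14 in untreated cells. These groups overlapped, and the call was lost without untreated array 2 or budesonide array 3 or 4. CDC6, the other licensing factor, moved the other way from CDT1. It stood at 9.84, 9.63, 9.60 and 9.81 with budesonide and 10.41, 9.96, 9.86 and 9.95 in untreated cells at 6 h, a change of -0.33 ± 0.10 (SE, adjusted p = 0.0123, limma). That call was lost without replicate 1 of every group (adjusted p = 0.0687, limma), and without untreated array 1 or budesonide array 2 or 3. CDC6 was also called lower with both drugs at 18 h, where its 2 probe sets ranged from -0.2866 to -0.2859. PCNA, the sliding clamp, stood at 11.92, 11.90, 11.79 and 11.95 with both drugs and 11.62, 11.76, 11.68 and 11.84 in untreated cells at 6 h. Combination array 3 overlapped with untreated array 4. Its change was +0.17 (adjusted p = 0.0315, limma), a call that leaving out replicate 1 of every group ended (adjusted p = 0.255, limma), as did leaving out untreated array 1 or 3 or combination array 1, 2 or 4.

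RRM2, the regulated subunit of ribonucleotide reductase that makes deoxynucleotides, was higher with formoterol at 2 and 6 h. At 6 h it stood at 11.33, 11.38, 11.40 and 11.43 with formoterol and 11.07, 10.73, 10.80 and 10.92 in untreated cells, all formoterol arrays above all untreated ones. The change was +0.51 ± 0.082 (SE, adjusted p = 7.32e-06) for formoterol at 6 h and +0.35 ± 0.082 (SE, adjusted p = 0.00295) at 2 h (limma). At 1 h it stood at 11.36, 11.23, 11.34 and 11.38 with both drugs and 10.96, 10.91, 10.99 and 11.06 in untreated cells. The combination arrays were all above the untreated ones. With both drugs the change was +0.35 ± 0.082 (SE, adjusted p = 0.00419) at 1 h, +0.48 ± 0.082 (SE, adjusted p = 9.58e-06) at 2 h and +0.23 ± 0.082 (SE, adjusted p = 0.0339) at 6 h (limma). The 1 h call was lost without replicate 1 of every group (adjusted p = 0.072, limma). At 18 h the combination was lower, -0.32 ± 0.082 (SE, adjusted p = 0.00216, limma), and formoterol alone was -0.0012 (adjusted p = 0.998, limma). The other RRM2 probe set gave -0.037 with both drugs at 18 h, so that fall is one of the brightest probe set. TYMS, the other nucleotide gene, was called in no comparison against untreated cells.

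Among the regulators, CDC25A, a phosphatase that activates cyclin-dependent kinases, was lower with budesonide early. It stood at 7.69, 7.51, 7.42 and 7.64 with budesonide and 8.11, 7.97, 7.75 and 8.07 in untreated cells at 1 h, and at 7.30, 7.28, 7.65 and 7.47 with budesonide and 7.87, 7.82, 7.99 and 7.85 in untreated cells at 2 h. Neither pair of groups overlapped. The change was -0.41 ± 0.092 (SE, adjusted p = 0.00556) at 1 h and -0.46 ± 0.092 (SE, adjusted p = 0.000406) at 2 h (limma). The 1 h call was lost without untreated array 1 or budesonide array 3. At 2 h the combination gave -0.078 (adjusted p = 0.789, limma). CDC25C, which acts at entry to mitosis like CDC25B, stood at 9.16, 8.97, 9.35 and 9.27 with both drugs and 8.62, 8.73, 8.87 and 8.96 in untreated cells at 18 h. The groups did not overlap, with combination array 2 just above untreated array 4. Its change was +0.39 ± 0.13 (SE, adjusted p = 0.0271, limma), a call lost without replicate 1 of every group (adjusted p = 0.114, limma) or without untreated array 1 or 2 or combination array 3 or 4. CDC25B stood at 10.10, 9.93, 9.88 and 10.00 with formoterol and 9.69, 9.68, 9.49 and 9.51 in untreated cells at 18 h. Its 4 formoterol arrays lay above all 4 untreated arrays, and its change of +0.39 did not pass the test (adjusted p = 0.139, limma) but passed in a fit of those groups alone (adjusted p = 0.0422, limma).

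FOXM1 stood at 8.69, 8.48, 8.36 and 8.31 with both drugs and 8.71, 8.81, 8.71 and 8.72 in untreated cells at 6 h. Its 4 combination arrays lay below all 4 untreated arrays, of which array 2 (8.81) stood apart, and its change was -0.28 (adjusted p = 0.141, limma). In a fit of those groups alone it passed (adjusted p = 0.0427, limma). E2F1 stood at 7.31, 7.18, 7.18 and 7.51 with both drugs and 7.13, 7.20, 7.03 and 7.21 in untreated cells at 2 h, a change of +0.16 (adjusted p = 0.621, limma). These groups overlapped.

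**Figure D4:**
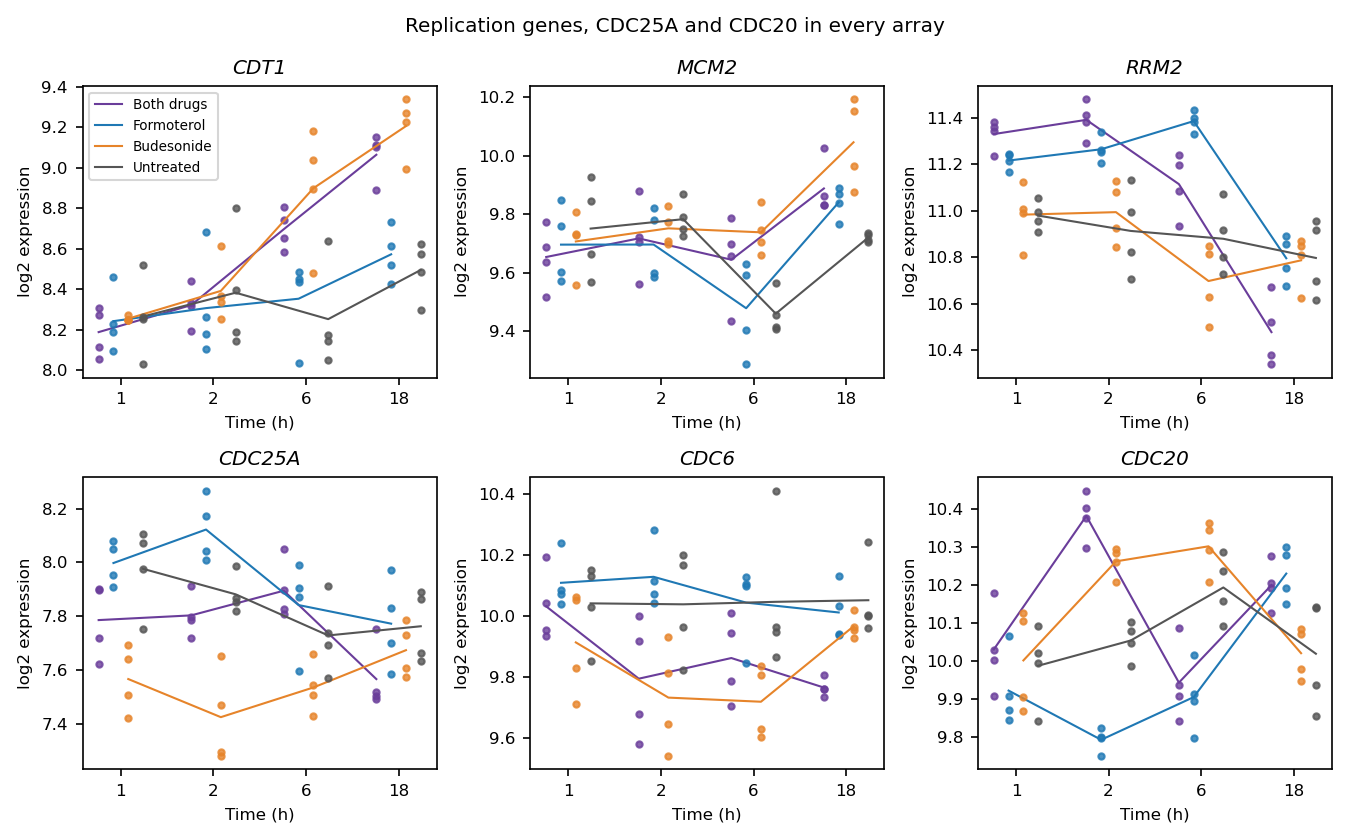
Log2 expression of CDT1, MCM2, RRM2, CDC25A, CDC6 and CDC20 in every array (points) with group means (lines), by time of treatment in hours. Among the treatments at each time named, CDT1 is highest with budesonide at 6 and 18 h, RRM2 with formoterol at 6 h, and CDC20 with both drugs at 2 h.

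Direct comparison of the combination with each drug showed what the added drug changed. At 1 h formoterol added to budesonide raised RRM2 (1.2% of all genes) and lowered CDCA8 (0.276%), and budesonide added to formoterol called no member (0.827% of all genes higher and 0.441% lower), where 2 had an unadjusted p under 0.05. The count for formoterol added to budesonide was 1 without budesonide array 2, 3 or 4 or combination array 2. Adding formoterol to budesonide at 2 h gave 13 members lower (1.54% of all genes were called lower) and 2 higher (2.83%), led by CDCA8 -0.82 ± 0.091 (SE, adjusted p = 3.02e-10) and CENPA -0.70 ± 0.054 (SE, adjusted p = 4.65e-16, limma). With the block set inside each time, 23 members were called, and the share of all genes was not counted there. Adding budesonide to formoterol at 2 h gave 3 lower (1.86%) and 1 higher (2.29%), the last being CDC20 +0.59 ± 0.065 (SE, adjusted p = 1.26e-10, limma). Without formoterol array 1 or combination array 2 that count of 4 was 1, and it was 2 without formoterol array 3 or combination array 4. At 6 h the added drug with more calls was budesonide: it gave 15 members lower (7.85% of all genes) and none higher (5.57%), led by AURKA -0.58 ± 0.064 (SE, adjusted p = 4.67e-11, limma). Formoterol added to budesonide at 6 h gave 7 lower (2.81%) and 4 higher (3.91%), the higher being CCNA2, CDC25A, PCNA and RRM2. At 18 h budesonide added to formoterol raised 3 members (8.95%), among them CDT1 +0.49 ± 0.13 (SE, adjusted p = 0.00254), and lowered AURKA and RRM2 (8.66%). Formoterol added to budesonide at 18 h raised KIF20A and NEK2, a centrosome kinase (0.303%), and lowered none (0.347%). That count was 7 with the replicate number as a block, where the share of all genes was not counted. It was 0 without budesonide array 4 or combination array 1, and 1 without budesonide array 2 or 3 or combination array 2 or 3.

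Budesonide set directly against formoterol gave 13 members higher (2.32% of all genes) and 3 lower (3.76%) at 2 h, and 3 higher (7.15%) and 10 lower (9.63%) at 6 h. At 1 h only CDCA8 was higher (0.629%) and CDC25A lower (1.32%), and at 18 h 3 were higher (7.32%) and 6 lower (8.09%). At 1 h 1 call was lost without budesonide array 3 or 4 or formoterol array 1 or 2. At 2 h CDCA8 differed by +0.85 ± 0.091 (SE, adjusted p = 4.12e-11) and CDC25A by -0.70 ± 0.092 (SE, adjusted p = 2.28e-08, limma). At 6 h RRM2 differed by -0.69 ± 0.082 (SE, adjusted p = 6.81e-10) and AURKA by -0.50 ± 0.064 (SE, adjusted p = 3.78e-09, limma).

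**Figure D5:**
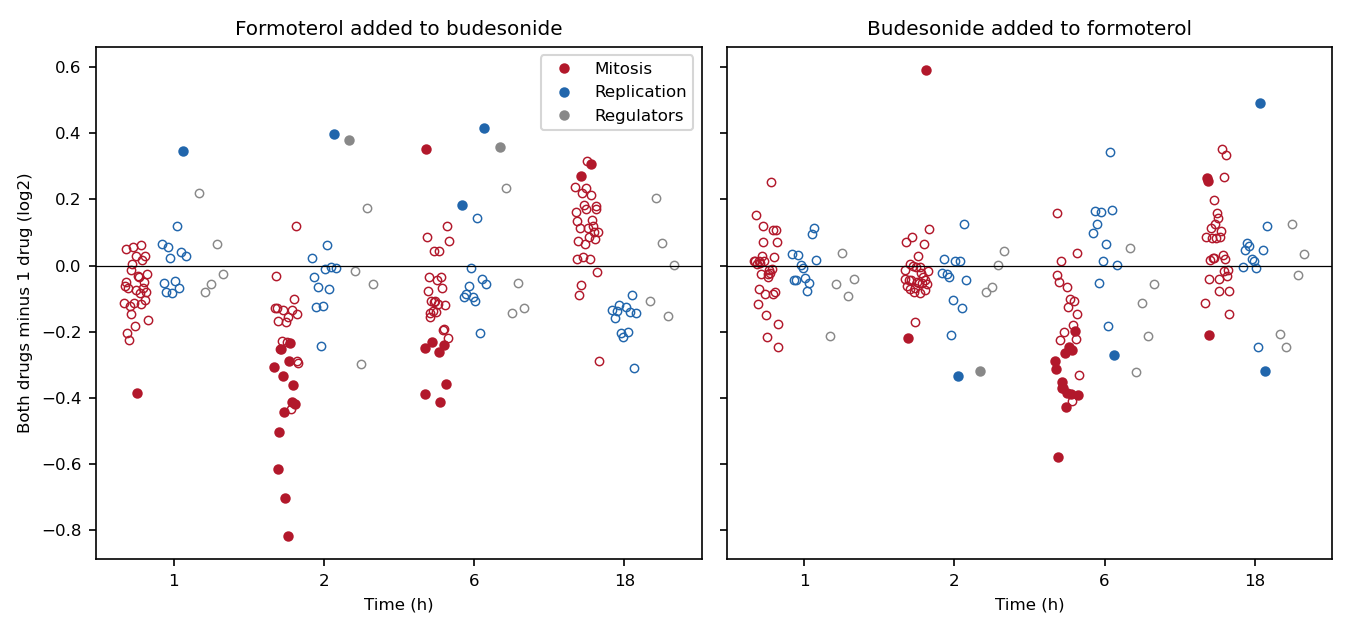
Log2 difference of the combination from budesonide (left) and from formoterol (right) for each member, by hours of treatment. Filled points were called at an adjusted p under 0.05, and colours mark mitosis, replication and regulator genes. Filled mitosis points lie below 0 at 2 h on the left and at 6 h on the right.

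With both drugs and with formoterol, the response of many members depended on time. The effect of both drugs differed between the 4 times for 25 members (22.6% of all genes) and of formoterol for 16 (4.51%), by a limma F test on all 4 times. By the same test the budesonide effect differed for 7, which is 14.9% of the members and near the 12.7% of all genes. Without replicate 1 of every group the formoterol count was 10 and the budesonide count 3. From 6 to 18 h the combination effect turned upward for 20 members (4.8% of all genes) and downward for RRM2 alone (5.15%). KIF20A had the largest turn, +1.04 ± 0.10 (SE, adjusted p = 8.98e-13, limma), followed by CCNB2 +0.89 ± 0.078 (SE, adjusted p = 8.17e-14, limma). From 2 to 6 h the formoterol effect turned upward for 6 members (1.37%) and downward for none (1.24%), led by CDCA8 +0.80 ± 0.13 (SE, adjusted p = 1.56e-05, limma). From 6 to 18 h it turned upward for 4 members (0.281%) and downward for RRM2 (1.12%). The combination effect from 2 to 6 h turned upward for 4 (6.2%) and downward for 4 (4.97%), the last being CCNB2, BUB1, KIF20A and CDC20. The budesonide effect from 2 to 6 h turned upward for CDT1 (2.47%) and downward for BUB1 and CENPA (2.53%), and from 6 to 18 h upward for 5 (1.71%) and downward for none (2.53%). The first of these counts was 1 without untreated array 3 or budesonide array 1 at 2 h, or untreated array 3 or budesonide array 1 or 4 at 6 h. The second was 3 without untreated array 3 or budesonide array 1 or 2 at 6 h, or untreated array 2 or budesonide array 3 at 18 h. In untreated cells 16 members had an unadjusted p under 0.05 (limma) at 6 h against 1 h, and 6 had at 18 h. The change at 6 h was negative for 2 of 30 mitosis genes (median +0.11) and for 9 of 12 replication genes (median -0.11). The median over all genes was +0.016. After adjustment CENPA was the only member called against its 1 h level. It was +0.34 at 6 h (adjusted p = 0.000155, limma) and +0.22 at 18 h (adjusted p = 0.034, limma), with 0.0662% and 0.226% of all genes called higher and 0.143% and 0.138% lower. The 18 h call was lost when any 1 of its 8 arrays was left out, and the 6 h count was 2 without untreated array 4 at 6 h. Untreated cells at 2 h showed no called member (0.0165% of all genes were called lower, and 0% higher), where 3 members had an unadjusted p under 0.05.

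Other genes of the pathway, taken from lists of mitosis, replication and cell cycle control genes that exclude the members, were counted in the same fits. Of 49 other mitosis genes, 16 were lower with formoterol at 2 h (2.29% of all genes) and 24 with both drugs at 2 h (5.65%). At 6 h 18 were lower (8.12%) and 1 higher (6.12%) with budesonide, and 27 lower (9.95%) and 2 higher (8.61%) with both drugs. At 18 h 9 were higher (10.3%) and 1 lower (10.7%) with both drugs. Their median change with both drugs was -0.23 at 2 h, against -0.0011 over all genes. BORA, an activator of AURKA, was -1.16 ± 0.13 (SE, adjusted p = 1.39e-10), and HJURP, the chaperone of CENPA, was -1.14 ± 0.087 (SE, adjusted p = 1.09e-16), both with both drugs at 2 h (limma). Of 41 other replication genes 12 were higher (8.56% of all genes) and none lower (9.78%) with budesonide at 18 h, led by PRIM1, a primase subunit, at +0.56 ± 0.059 (SE, adjusted p = 1.48e-11, limma). With formoterol at 2 h none of these 41 was called higher (2.31% of all genes) or lower (2.29%), which is near those shares.

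Some control genes changed by more than any member. Of 29 such genes, 7 were higher (8.61% of all genes) and 4 lower (9.95%) with both drugs at 6 h, and 2 were higher (3.84%) and 9 lower (5.65%) with both drugs at 2 h. CDKN1C, an inhibitor of cyclin-dependent kinases, was +4.57 ± 0.25 (SE, adjusted p = 4.98e-23) with both drugs and +3.12 ± 0.25 (SE, adjusted p = 8.72e-16) with budesonide at 6 h (limma). CCND1, the G1 cyclin, was -2.14 ± 0.16 (SE, adjusted p = 3.48e-17) with budesonide and -1.11 ± 0.16 (SE, adjusted p = 4.24e-07) with formoterol at 6 h (limma). CDKN1A, the p21 inhibitor, was +1.11 ± 0.11 (SE, adjusted p = 1.68e-12) with both drugs at 2 h (limma). CCNE1, the cyclin that starts S phase, was +0.99 ± 0.12 (SE, adjusted p = 2.96e-10) with both drugs at 6 h (limma), and CDKN1B, the p27 inhibitor, was -0.53 ± 0.12 (SE, adjusted p = 0.00237) with budesonide at 2 h (limma).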

How the data were processed

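Total RNA of 64 samples was hybridised to Affymetrix arrays, and the deposited log2 values were made by the authors with RMA, per the submitters' processing notes; its version and settings are not given in the sources used here. RMA corrects background within each array and fits quantile normalization and probe summary over all arrays, so values are relative. Levels of different probe sets are set side by side only to pick the brightest of a gene and, against the median of all values, to see which genes were detected. Probe sets with 1 symbol in the platform annotation were kept (44994 of 49395), and 1 probe set per gene, that with the highest mean, gave 18132 genes.

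All 16 groups were fitted with limma 3.58.1 in R 4.3.3 (lmFit, eBayes with trend, 48 residual degrees of freedom), with Benjamini-Hochberg adjustment over all genes within each comparison. The fit was tested on simulated data. The members and gene lists were chosen with earlier results of these data known. Values in every array are given for a fixed set of members and for the 3 with the largest change among those called in each comparison with untreated cells. Other pathway genes are named from the 4 with the largest change among those called in their list, in each comparison.

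Same-number arrays deviated together, with every correlation of a pair over 0.1, in 13 of 24 comparisons within a time. As alternatives the replicate number was taken as a block in every comparison, paired or not. The block within each time was used in all but those of untreated times. Promoter windows are RefSeq's (GRCh38.p14). The number of arrays limits the precision.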

Additional observations from a re-analysis of the deposited data

Results flagged for a closer look

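In 4 of 71 group values of named genes 1 array stood far from the other 3 of its group by Dixon's gap test, where chance flags about 1 in 20. AURKA was 10.90 in array 4 of budesonide at 2 h, against 10.80 to 10.81 in the others. CDCA8 was 9.03 in untreated array 3 at 2 h, against 8.57 to 8.65. CCNB2 was 10.29 in untreated array 1 at 6 h, against 10.14 to 10.15. FOXM1 was 8.81 in untreated array 2 at 6 h, against 8.71 to 8.72.

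The effect of a drug differed between times, by a limma F test, for 7 members with budesonide (12.7% of all genes). The same held for 16 with formoterol (4.51%) and 25 with both drugs (22.6%). Single differences between effects passed the limma test after Benjamini-Hochberg adjustment as follows. For budesonide, the effect at 6 h minus that at 2 h was +0.64 for CDT1 and -0.34 for BUB1, and the effect at 18 h minus that at 6 h was +0.49 for CENPE and +0.48 for CENPA. For formoterol, the effect at 6 h minus that at 2 h was +0.80 for CDCA8 and +0.615 for AURKA, and the effect at 18 h minus that at 6 h was +0.55 for KIF20A and -0.51 for RRM2. For both drugs, the effect at 6 h minus that at 2 h was +0.64 for CDCA8 and -0.58 for CDC20, and the effect at 18 h minus that at 6 h was +1.04 for KIF20A and +0.89 for CCNB2. The combination of both drugs differed from the sum of the single drugs by +0.38 for CDC20 at 2 h.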

How the results depend on the processing

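Counts of called members are given where they moved by over 1.5 times from the count in the main text. Shares of all genes called were not counted under the alternatives. No direction reversed in any named change. Of 40 named changes under 9 alternatives, 296 results kept their side of the threshold, 32 lost it and 5 gained it, and with 1 array left out 264 kept it and 56 lost it. The block ended none of the 40, and set within each time it added calls for TOP2A (formoterol at 2 h, limma adjusted p = 0.0201), CDC25B (formoterol at 18 h, 1.66e-06) and FOXM1 (both drugs at 6 h, 0.00037). The numbers paired the arrays only in the first of these 3, and not in the 6 h comparisons of a single drug with untreated cells. With replicate as a block, the count was 6 for budesonide at 2 h, 15 for budesonide at 18 h, 10 for formoterol at 6 h, 4 for formoterol at 18 h, 4 for both drugs minus budesonide at 1 h, 7 for both drugs minus budesonide at 18 h and 10 for both drugs minus formoterol at 18 h. It was 20 for budesonide minus formoterol at 6 h, 15 for budesonide minus formoterol at 18 h, 1 for interaction at 18 h, 5 for untreated 6 h minus 1 h, 2 for untreated 18 h minus 1 h, 8 for the budesonide effect from 2 to 6 h and 9 for the budesonide effect from 6 to 18 h. It was 11 for the formoterol effect from 6 to 18 h, 16 for the combined effect from 2 to 6 h and 15 for budesonide across times. With the block set within each time, the count was 7 for budesonide at 2 h, 27 for budesonide at 6 h, 16 for budesonide at 18 h, 6 for formoterol at 1 h, 15 for formoterol at 6 h, 8 for formoterol at 18 h and 8 for both drugs at 1 h. It was 22 for both drugs at 18 h, 4 for both drugs minus budesonide at 1 h, 23 for both drugs minus budesonide at 2 h, 14 for both drugs minus budesonide at 18 h, 23 for both drugs minus formoterol at 6 h, 15 for both drugs minus formoterol at 18 h and 5 for budesonide minus formoterol at 1 h. It was 24 for budesonide minus formoterol at 6 h, 21 for budesonide minus formoterol at 18 h, 3 for interaction at 18 h, 11 for the budesonide effect from 2 to 6 h, 15 for the budesonide effect from 6 to 18 h, 11 for the formoterol effect from 2 to 6 h and 12 for the formoterol effect from 6 to 18 h. It was 21 for the combined effect from 2 to 6 h, 21 for budesonide across times and 26 for formoterol across times. With arrays centred on their median, the count was 1 for formoterol at 1 h, 0 for formoterol at 18 h, 1 for both drugs minus budesonide at 18 h and 3 for untreated 6 h minus 1 h. With quantile normalization repeated, the count was 8 for budesonide at 18 h. With dim genes left out, the count was 6 for budesonide at 2 h, 8 for budesonide at 18 h, 8 for formoterol at 6 h and 3 for untreated 6 h minus 1 h. With probe sets averaged per gene, the count was 0 for budesonide at 1 h, 8 for budesonide at 18 h, 1 for formoterol at 1 h, 3 for formoterol at 6 h, 2 for both drugs at 1 h, 15 for both drugs at 6 h and 0 for both drugs minus budesonide at 1 h. It was 6 for both drugs minus budesonide at 6 h, 1 for budesonide minus formoterol at 1 h, 0 for interaction at 2 h, 0 for untreated 6 h minus 1 h, 0 for untreated 18 h minus 1 h, 1 for the budesonide effect from 2 to 6 h and 8 for the budesonide effect from 6 to 18 h. It was 4 for the combined effect from 2 to 6 h. With only the compared groups in the fit, the count was 0 for budesonide at 1 h, 1 for budesonide at 2 h, 10 for budesonide at 18 h, 10 for formoterol at 2 h, 1 for both drugs minus budesonide at 1 h, 8 for both drugs minus budesonide at 2 h and 1 for both drugs minus formoterol at 2 h. It was 1 for budesonide minus formoterol at 1 h, 9 for budesonide minus formoterol at 2 h, 0 for untreated 18 h minus 1 h, 0 for the budesonide effect from 2 to 6 h, 3 for the budesonide effect from 6 to 18 h and 5 for the combined effect from 2 to 6 h. Without replicate 1 in every group, the count was 0 for formoterol at 1 h, 0 for formoterol at 18 h, 1 for both drugs at 1 h, 1 for both drugs minus budesonide at 1 h, 9 for both drugs minus budesonide at 2 h, 7 for both drugs minus budesonide at 6 h and 0 for both drugs minus budesonide at 18 h. It was 2 for both drugs minus formoterol at 2 h, 10 for budesonide minus formoterol at 2 h, 0 for interaction at 2 h, 0 for untreated 18 h minus 1 h, 0 for the budesonide effect from 2 to 6 h, 3 for the budesonide effect from 6 to 18 h and 3 for budesonide across times. It was 10 for formoterol across times. Without replicate 3 in every group at 2 h, chosen after seeing the data, the count was 1 for both drugs minus formoterol at 2 h and 0 for interaction at 2 h.

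With 1 array left out at a time, counts ranged from 0 to 1 for budesonide at 1 h, 1 to 3 for budesonide at 2 h, 0 to 2 for formoterol at 1 h, 12 to 18 for formoterol at 2 h, 0 to 1 for formoterol at 18 h and 2 to 4 for both drugs at 1 h. They were 1 to 3 for both drugs minus budesonide at 1 h, 0 to 2 for both drugs minus budesonide at 18 h, 1 to 4 for both drugs minus formoterol at 2 h, 1 to 2 for budesonide minus formoterol at 1 h, 0 to 1 for interaction at 2 h and 1 to 2 for untreated 6 h minus 1 h. They were 0 in each case for untreated 18 h minus 1 h, 1 to 4 for the budesonide effect from 2 to 6 h and 3 to 7 for the budesonide effect from 6 to 18 h. A block within time gives no value for comparisons of untreated times, and the same numbers paired the arrays in 1 of 3 of these. The causes were not tested. The 2 block settings and the fit of compared groups alone change the estimate of spread and not the changes themselves. No member averaged below the lower quartile of all array values (3.02) in any group.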

Other observations

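Of 113 called changes against untreated cells 69 were of members with several probe sets, and in 5 of these the probe sets disagreed in sign. These were 4 of CDC20 and 1 of BIRC5, a passenger protein, which ranged over 12 probe sets from -0.55 to +0.14 with both drugs at 6 h. MKI67, with 6 probe sets, ranged from -0.81 to -0.42 with both drugs at 6 h, and CENPA, with 4, from -0.91 to -0.76 with both drugs at 2 h. CDT1, with 3, ranged from +0.71 to +0.83 with budesonide at 18 h.

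Other genes of the mitosis list also turned between 6 and 18 h. With both drugs DLGAP5, a spindle protein, was -0.73 at 6 h (adjusted p = 1.64e-12, limma), and HMMR, a spindle assembly factor, was +0.56 at 18 h (adjusted p = 1.87e-09, limma). Of 49 other mitosis genes, the combination effect turned upward from 6 to 18 h for 23 (4.8% of all genes) and downward for none (5.15%). Among replication genes ORC1, a subunit of the origin recognition complex, was +0.66 with both drugs and +0.49 with budesonide at 6 h (adjusted p = 1.53e-07 and 9.79e-05, limma), while HELLS, a chromatin remodeller, was -0.50 with both drugs and -0.41 with budesonide (adjusted p = 5.88e-06 and 0.000193, limma).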
